A study of Mus musculus with 18 samples.

Results

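The Myc, Max and Mxd network was followed as 9 genes among the 55335 gene identifiers of the counts. The members were chosen by name as Myc, Mycn and Mycl, the shared partner Max, and the repressors Mxd1, Mxd3, Mxd4, Mxi1 and Mnt, and all 9 were found. They were measured by bulk RNA-seq of polyadenylated RNA in 18 libraries of O9-1 cells, a line of NC cells isolated from the head of mouse embryos that was kept here in osteoblast differentiation medium. All libraries carry the label wildtype for genotype. Ctrl+vehicle cells received scramble siRNA and no FGF2, Ctrl+FGF2 cells received scramble siRNA and FGF2, and Y/T dKD+FGF2 cells received siRNA against Yap and Taz together with FGF2. Each group has 3 libraries at d2.5 and 3 at d5. Knockdown cells without FGF2 are not part of these data, so every effect of the knockdown was read in the presence of FGF2. The cells are 1 line, siRNA lowers but does not remove its targets, and the labels do not say whether replicates were separate cultures, so p-values measure the spread between these libraries only. In bulk RNA a lower level in every cell and fewer cells that express a gene cannot be told apart.

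Myc proteins are transcription factors that bind DNA as dimers with Max, at E-box sequences, and are known for raising genes of ribosome biogenesis, nucleotide synthesis and the cell cycle. Mxd proteins, Mxi1 and Mnt also pair with Max and bind the same E-boxes, but recruit Sin3 corepressors and histone deacetylases, so that the makeup of the network sets which dimers form. Myc is a known early target of growth factor and ERK signaling, and Mxd genes are known from cells that leave the cycle and differentiate. In the neural crest Myc and Mycn are known from the early, proliferating and multipotent state.

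The depth was 10377151 to 14698525 counts on genes per library (median 12330911). The unit of level is normalized CPM, which sets the 18 libraries on 1 scale of size. The siRNA targets were read first. Yap1 was at 126 to 132 CPM in Ctrl+FGF2 libraries and at 65.3 to 69.6 CPM after knockdown at d2.5, and at 147 to 159 and 67.2 to 74.0 CPM at d5, which left 51.5% and 46.0%. Of Wwtr1, which encodes Taz, 60.8% and 57.5% was left, and no knockdown library reached a Ctrl+FGF2 library of its day for either gene. FGF2 itself raised Wwtr1 at d2.5 (log2 fold change 0.65, adjusted p = 1.3e-16) and lowered Yap1 (−0.23, adjusted p = 3.3e-06). At d2.5 Wwtr1 in Y/T dKD+FGF2 libraries (130 to 142 CPM) therefore overlapped with Ctrl+vehicle (138 to 142 CPM), and was low only against Ctrl+FGF2. Of 10 neural crest and mesenchyme markers, Sox10 and Foxd3, which define early migratory NC cells, had 0 counts in all 18 libraries, and 8 passed the filter on low counts. The summed level of the 10 was 1950.5 to 1979.6 CPM with vehicle, 1529.5 to 1568 CPM with FGF2 and 1619 to 1708 CPM with FGF2 and knockdown at d2.5, and 2313 to 2367, 2498 to 2551 and 2239.9 to 2290.8 CPM at d5. Prrx1 alone was at 1557 to 1565 CPM with vehicle at d2.5, so the sum mostly follows this gene. Of the 8 tested markers, FGF2 at d2.5 raised 0 and lowered 5, against 33.5% and 34.1% of all genes. At d5 it raised 4 and lowered 3, against 23.5% and 23.7%. The 8 markers of blood, endothelium, epithelium and neurons summed to 3.56 to 5.11, 2.61 to 4.22 and 5.06 to 5.84 CPM at d2.5 and to 0.704 to 1.17, 1.71 to 2.36 and 1.53 to 2.08 CPM at d5, with Cdh5 and Elavl3 at 0 throughout. The part of these markers in the results was not tested.

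The promoter windows of the members were read because the network binds E-boxes in the promoters of many genes, its own members among them. RefSeq windows of 300 bases, most of them before the start, on GRCm38.p6 were found for 8 of the 9 members (all but Myc), 10 windows in all. The E-box CACGTG, which reads the same on both strands, was in the windows of 3 of these 8 genes, Max, Mxd4 and Mnt. For comparison, 8.09% of the 27025 genes with a window hold it. The letters CATTCC, the core that TEAD factors (the DNA-binding partners of Yap and Taz) recognize, were searched on both strands. They were in 0 of the 10 windows, against 14.7% of all windows, and so in 0 of the 8 genes, against 16.6% of all genes. With so few genes this is no sign of a lack. The windows of Max (chr12:76962199-76962498, minus strand, E-box at position -3), Mxd4 (chr5:34187661-34187960, minus strand, position -219) and Mnt (chr11:74830674-74830973, plus strand, position -123) are printed 5′ to 3′ with the E-box in capitals and positions counted from the start. A match of letters is a description of the sequence and no measurement of binding.
Max: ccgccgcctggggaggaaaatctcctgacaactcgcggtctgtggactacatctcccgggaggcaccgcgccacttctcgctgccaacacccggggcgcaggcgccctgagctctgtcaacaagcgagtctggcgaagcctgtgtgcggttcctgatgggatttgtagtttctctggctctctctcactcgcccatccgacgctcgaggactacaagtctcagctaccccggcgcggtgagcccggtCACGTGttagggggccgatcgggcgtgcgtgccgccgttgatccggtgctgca
Mxd4: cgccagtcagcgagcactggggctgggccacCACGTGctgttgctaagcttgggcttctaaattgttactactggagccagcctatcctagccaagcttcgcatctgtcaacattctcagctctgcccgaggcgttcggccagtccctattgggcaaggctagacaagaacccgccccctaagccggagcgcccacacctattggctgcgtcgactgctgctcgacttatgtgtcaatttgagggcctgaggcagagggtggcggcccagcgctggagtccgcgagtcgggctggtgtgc
Mnt: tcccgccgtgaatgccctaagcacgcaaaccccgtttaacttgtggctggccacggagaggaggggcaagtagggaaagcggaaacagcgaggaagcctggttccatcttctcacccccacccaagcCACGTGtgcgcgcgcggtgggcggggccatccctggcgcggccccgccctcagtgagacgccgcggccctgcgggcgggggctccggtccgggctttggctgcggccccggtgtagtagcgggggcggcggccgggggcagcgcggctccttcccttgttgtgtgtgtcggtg

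Myc was raised by FGF2 at d2.5 and lowered by FGF2 at d5. Myc (ENSMUSG00000022346.15) is annotated at 61985391 to 61990374 of chromosome 15 (plus strand, GRCm38), and encodes the activator that pairs with Max. At d2.5 it was at 60.2, 59.7 and 55.6 CPM in the Ctrl+vehicle libraries, 146, 154 and 150.2 CPM in the Ctrl+FGF2 libraries and 124, 127 and 122 CPM in the Y/T dKD+FGF2 libraries. The 3 groups did not overlap, and knockdown libraries lay between the others but nearer to Ctrl+FGF2. The log2 fold change was 1.35 for Ctrl+FGF2 against Ctrl+vehicle (standard error 0.04, adjusted p = 1.1e-22) and −0.28 for Y/T dKD+FGF2 against Ctrl+FGF2 (standard error 0.04, adjusted p = 3.1e-06). At d5 the libraries were at 41.9, 34.7 and 31.6 CPM in Ctrl+vehicle, 22.9, 16.9 and 21.6 CPM in Ctrl+FGF2 and 31.2, 29.7 and 30.7 CPM in Y/T dKD+FGF2. Ctrl+FGF2 was now the lowest group without overlap, a log2 fold change of −0.81 against Ctrl+vehicle (standard error 0.11, adjusted p = 7.6e-06), and Y/T dKD+FGF2 was higher than Ctrl+FGF2 by 0.58 (standard error 0.11, adjusted p = 0.00053). The knockdown thus lowered Myc at d2.5 and raised it at d5, and both calls held in each of the 9 fits per day that left out 1 library. The level of Myc was lower at d5 than at d2.5 in every group, but the labels name the day as the batch, so day and batch cannot be told apart.

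**Figure D1:**
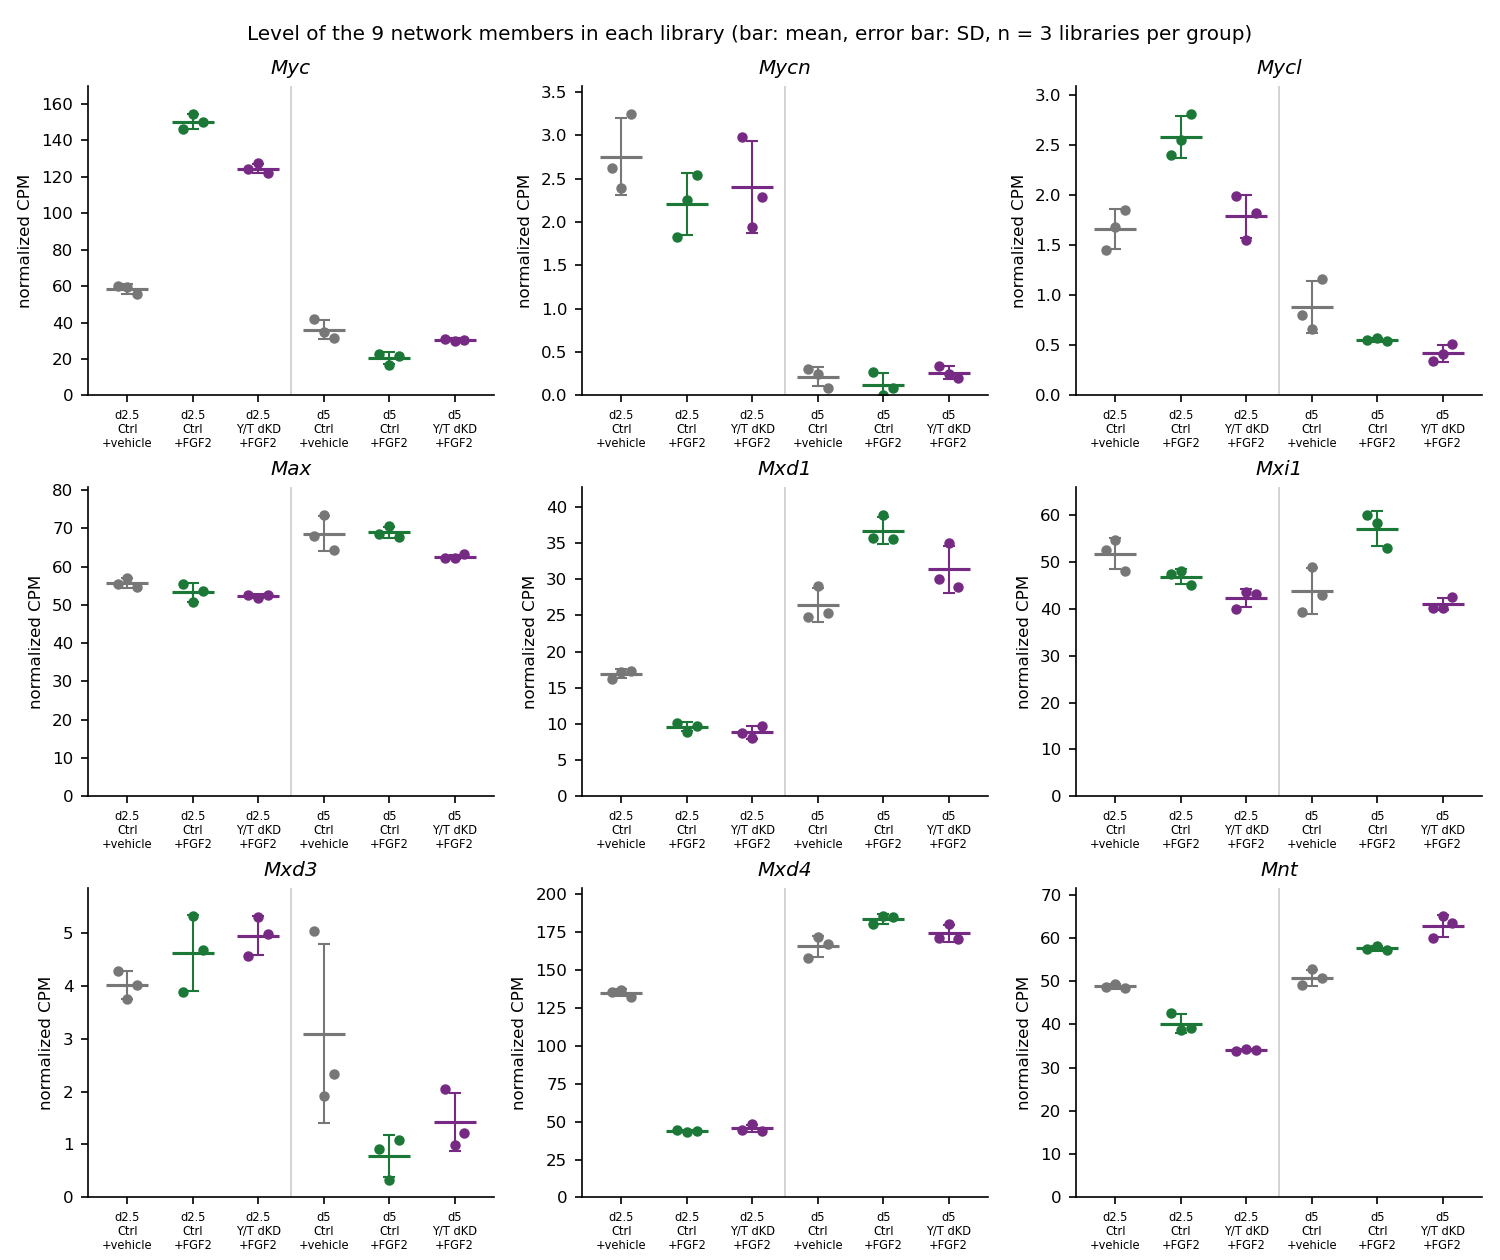
Normalized CPM of the 9 members on the vertical axis (from 0), by group and day on the horizontal axis. Each point is a library, with the mean and SD of 3. Myc peaks in Ctrl+FGF2 at d2.5 (146 to 154 CPM), where Mxd4 is at 42.9 to 44.4 CPM against 132 to 137 CPM in Ctrl+vehicle.

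Mycn and Mycl, the paralogs of Myc, were near the limit of detection. Mycn (ENSMUSG00000037169.15, chromosome 12 from 12936093 to 12941914, minus strand) is known as the Myc gene of neural progenitors and early embryos. It was at 2.62, 2.39 and 3.25 CPM in Ctrl+vehicle, 1.83, 2.26 and 2.54 CPM in Ctrl+FGF2 and 2.98, 1.94 and 2.29 CPM in Y/T dKD+FGF2 at d2.5. The groups overlapped, and neither FGF2 (log2 fold change −0.31, standard error 0.21, adjusted p = 0.19) nor the knockdown (0.10, standard error 0.22, adjusted p = 0.78) passed the test. At d5 its counts summed to 7, 4 and 9 over the 3 libraries of each group in the same order, too few for the filter on low counts, and a change was not detectable at this depth. Mycl (ENSMUSG00000028654.13, chromosome 4 from 122995652 to 123002485, plus strand) was at 1.45, 1.68 and 1.85 CPM in Ctrl+vehicle, 2.39, 2.55 and 2.81 CPM in Ctrl+FGF2 and 1.99, 1.56 and 1.82 CPM in Y/T dKD+FGF2 at d2.5. Every Ctrl+FGF2 library lay above the other 6. FGF2 raised it by 0.63 (standard error 0.21, adjusted p = 0.0098), a call that was lost without replicate 1 of Ctrl+vehicle (0.54, adjusted p = 0.051) and with DESeq2 (adjusted p = 0.064). The knockdown difference of −0.54 did not pass (standard error 0.21, adjusted p = 0.064). At d5 the Mycl counts summed to 29, 19 and 14 per group, again under the filter.

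Max, the shared partner of the other members, differed little. Max (ENSMUSG00000059436.13) is annotated at 76937269 to 76962201 of chromosome 12, minus strand. It was at 54.6 to 57.1 CPM in Ctrl+vehicle, 50.7 to 55.4 CPM in Ctrl+FGF2 and 51.7 to 52.6 CPM in knockdown libraries at d2.5, and at 64.3 to 73.4, 67.7 to 70.6 and 62.1 to 63.1 CPM at d5. The Ctrl+vehicle and Ctrl+FGF2 libraries overlapped on both days. The log2 fold change with FGF2 was −0.08 at d2.5 (standard error 0.05, adjusted p = 0.16) and 0.02 at d5 (standard error 0.05, adjusted p = 0.78). The knockdown difference at d2.5 was −0.03 (standard error 0.05, adjusted p = 0.66). At d5 Max passed the test as lower after knockdown, by a small amount (−0.15, standard error 0.05, adjusted p = 0.038). That call was kept in 3 of the 9 fits that left out 1 library, and was lost without any 1 of the 6 libraries compared (adjusted p = 0.059 to 0.12) and with DESeq2 (adjusted p = 0.14).

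Mxd4 carried the largest fold change with FGF2 among the repressors at d2.5. Mxd4 (ENSMUSG00000037235.13) is annotated at 34173883 to 34187720 of chromosome 5 (minus strand), and its promoter window holds the E-box printed above, as do those of Max and Mnt. At d2.5 it was at 136, 137 and 132 CPM in Ctrl+vehicle, 44.4, 42.9 and 43.9 CPM in Ctrl+FGF2 and 44.6, 48.2 and 43.9 CPM in Y/T dKD+FGF2. The Ctrl+vehicle libraries stood far above the other 6, while Ctrl+FGF2 and Y/T dKD+FGF2 overlapped. FGF2 lowered Mxd4 to 32.1% of its Ctrl+vehicle level (log2 fold change −1.64, standard error 0.04, adjusted p = 3.0e-24), and the knockdown difference was 0.05 (standard error 0.05, adjusted p = 0.52). At d5 the libraries were at 158, 172 and 167 CPM in Ctrl+vehicle, 180.1, 185 and 185 CPM in Ctrl+FGF2 and 171, 181 and 171 CPM in Y/T dKD+FGF2. Ctrl+FGF2 was above Ctrl+vehicle in all 3 libraries, a rise of 0.16 (standard error 0.04, adjusted p = 0.0030), and the knockdown difference of −0.08 did not pass (standard error 0.04, adjusted p = 0.13). Mxd4 shares exonic bases with a gene on the opposite strand, Gm42846, which had 6 counts over all libraries.

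Mxd1, known to rise as cells of several lineages differentiate, moved the same way at a lower level. Mxd1 (ENSMUSG00000001156.9) is annotated at 86647042 to 86669161 of chromosome 6, minus strand. It was at 16.2, 17.2 and 17.3 CPM in Ctrl+vehicle, 10.1, 8.95 and 9.76 CPM in Ctrl+FGF2 and 8.78, 8.01 and 9.71 CPM in Y/T dKD+FGF2 at d2.5, so that only Ctrl+vehicle stood apart. The log2 fold change with FGF2 was −0.82 (standard error 0.09, adjusted p = 4.1e-09), and −0.13 with the knockdown (standard error 0.11, adjusted p = 0.41). At d5 it was at 24.8, 29.1 and 25.3 CPM in Ctrl+vehicle, 35.7, 38.8 and 35.6 CPM in Ctrl+FGF2 and 30.03, 35.1 and 28.9 CPM in Y/T dKD+FGF2. FGF2 raised Mxd1 here by 0.48 (standard error 0.08, adjusted p = 8.4e-05), with no overlap of the groups. The knockdown lowered it (−0.23, standard error 0.08, adjusted p = 0.032), a call that was lost without replicate 2 or 3 of Ctrl+FGF2 (adjusted p = 0.12 and 0.054), without replicate 1 or 3 of Y/T dKD+FGF2 (adjusted p = 0.12 and 0.15) and with DESeq2 (adjusted p = 0.089).

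Mxi1 had the largest called knockdown effect among the repressors. Mxi1 (ENSMUSG00000025025.14) is annotated at 53310518 to 53375810 of chromosome 19, plus strand. At d5 it was at 39.2, 48.9 and 43.0 CPM in Ctrl+vehicle, 59.9, 58.3 and 53.0 CPM in Ctrl+FGF2 and 40.2, 40.1 and 42.5 CPM in Y/T dKD+FGF2. Ctrl+FGF2 stood above the other 6 libraries, which overlapped with each other. FGF2 raised it by 0.39 (standard error 0.07, adjusted p = 0.00016) and the knockdown lowered it (−0.49, standard error 0.07, adjusted p = 3.5e-05), calls that held in each of the 9 fits without 1 library. At d2.5 the differences were small, with 48.1 to 54.5 CPM in Ctrl+vehicle, 45.1 to 48.04 CPM in Ctrl+FGF2 and 40.00 to 43.6 CPM in Y/T dKD+FGF2. FGF2 lowered it (−0.16, standard error 0.06, adjusted p = 0.012), a call lost without replicate 2 of Ctrl+vehicle (adjusted p = 0.089) or replicate 3 of Ctrl+FGF2 (adjusted p = 0.085). The knockdown call at d2.5 (−0.16, standard error 0.06, adjusted p = 0.048) held in 5 of 9 fits. It was lost without replicate 1 or 2 of Ctrl+FGF2 (adjusted p = 0.13 and 0.15) and without replicate 1 or 3 of Y/T dKD+FGF2 (adjusted p = 0.22 and 0.080), and with 7 other settings, DESeq2 among them (adjusted p = 0.14).

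Mnt, the broadly expressed antagonist of Myc, fell with FGF2 and again with the knockdown at d2.5. Mnt (ENSMUSG00000000282.12) is annotated at 74830920 to 74845725 of chromosome 11, plus strand. It was at 48.6, 49.4 and 48.4 CPM in Ctrl+vehicle, 42.7, 38.8 and 39.2 CPM in Ctrl+FGF2 and 34.0, 34.4 and 34.1 CPM in Y/T dKD+FGF2, 3 groups in steps without overlap. The log2 fold changes were −0.29 for FGF2 (standard error 0.05, adjusted p = 1.5e-05) and −0.24 for the knockdown (standard error 0.06, adjusted p = 0.0020). At d5 the steps ran upward, with 49.1, 52.7 and 50.7 CPM in Ctrl+vehicle, 57.4, 58.2 and 57.2 CPM in Ctrl+FGF2 and 60.1, 65.1 and 63.5 CPM in Y/T dKD+FGF2. The rise with FGF2 was 0.19 (standard error 0.05, adjusted p = 0.0046). The further difference of 0.12 with the knockdown did not pass the test (standard error 0.05, adjusted p = 0.076), although its groups did not overlap.

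Mxd3, known from proliferating progenitors and the S phase, went the other way from the other repressors at d5. Mxd3 (ENSMUSG00000021485.14) is annotated at 55325168 to 55329823 of chromosome 13, minus strand. At d2.5 it was at 3.74 to 4.28 CPM in Ctrl+vehicle, 3.87 to 5.31 CPM in Ctrl+FGF2 and 4.55 to 5.29 CPM in Y/T dKD+FGF2. Neither the FGF2 difference of 0.19 (standard error 0.15, adjusted p = 0.28) nor the knockdown difference of 0.09 (standard error 0.15, adjusted p = 0.72) passed. At d5 its counts were 50, 23 and 26 in Ctrl+vehicle, 10, 4 and 12 in Ctrl+FGF2 and 24, 12 and 12 in Y/T dKD+FGF2. Every Ctrl+FGF2 library lay under every Ctrl+vehicle library. FGF2 lowered Mxd3 (log2 fold change −1.96, standard error 0.43, adjusted p = 0.0011), and the fold change was between −2.28 and −1.45 in the fits that left out 1 library, the latter without replicate 1 of Ctrl+vehicle. The knockdown difference was 0.90 with a wide error (standard error 0.51, adjusted p = 0.20). Mxd3 shares 105 exonic bases with Prelid1 on the opposite strand, which had 41325 counts against 729 for Mxd3 over the 18 libraries, and the counts used here are of the strand of the gene. Whether some reads of Prelid1 were counted on the strand of Mxd3 was not tested.

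Across the members, FGF2 at d2.5 raised 2 of 9 (Myc and Mycl) and lowered 4 (Mxd1, Mxi1, Mxd4 and Mnt), where 33.5% of the 13677 tested genes were called higher and 34.1% lower. At d5 it raised 4 of 7 tested members (Mxd1, Mxi1, Mxd4 and Mnt) and lowered 2 (Myc and Mxd3), against 23.5% and 23.7% of 13304 genes. The knockdown at d2.5 raised 0 of 9 members and lowered 3 (Myc, Mxi1 and Mnt), against 10.8% and 13.6% of all genes. At d5 the knockdown raised 1 of 7 (Myc) and lowered 3 (Max, Mxd1 and Mxi1), against 15.6% and 16.1%. The members are few, so the description rests on the direction and size of each one and not on these counts.

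**Figure D2:**
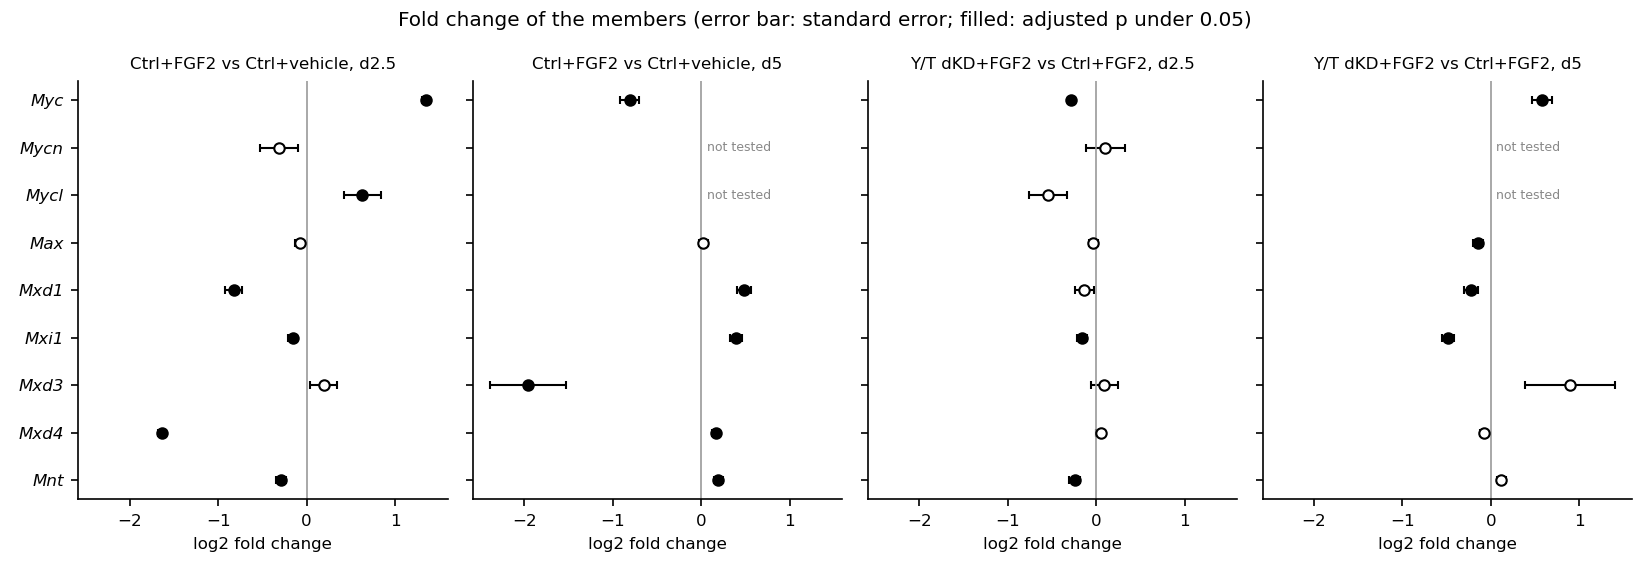
Log2 fold change (horizontal axis) of each member in 4 comparisons, with the standard error. Filled points passed the test, and Mycn and Mycl were not tested at d5. With FGF2, Myc is at 1.35 and Mxd4 at −1.64 at d2.5, and Myc is at −0.81 and Mxd4 at 0.16 at d5.

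Y/T dKD+FGF2 cells were also set against Ctrl+vehicle cells, which shows what FGF2 and the knockdown did together. At d2.5 Myc was higher by 1.07 (standard error 0.04, adjusted p = 8.6e-20), the 1 member called higher where 34.1% of all genes were. Called lower were Mxd4 (−1.59, standard error 0.05, adjusted p = 1.0e-23), Mxd1 (−0.96, standard error 0.10, adjusted p = 4.5e-10), Mnt (−0.54, standard error 0.06, adjusted p = 5.9e-10) and Mxi1 (−0.31, standard error 0.06, adjusted p = 1.5e-05). Max was also called lower (−0.11, standard error 0.05, adjusted p = 0.046), lost in each of the 9 fits without 1 library, and 35.7% of all genes were called lower. At d5 the 2 members called higher were Mnt (0.31, standard error 0.05, adjusted p = 7.7e-05) and Mxd1 (0.25, standard error 0.08, adjusted p = 0.020), where 20.7% of genes were. Mxd3 was called lower (−1.06, standard error 0.38, adjusted p = 0.031), where 21.1% of genes were. The Mxd1 and Mxd3 libraries of these groups overlapped. The Mxd1 call was lost without replicate 1 or 3 of Ctrl+vehicle or replicate 2 of Y/T dKD+FGF2 (adjusted p = 0.067, 0.083 and 0.16) and with DESeq2 (adjusted p = 0.059). The Mxd3 call was lost without replicate 1 of Ctrl+vehicle or replicate 2 or 3 of Y/T dKD+FGF2 (−0.56, −0.85 and −0.98, adjusted p = 0.23, 0.13 and 0.091) and with unstranded counts (adjusted p = 0.071). Myc was at −0.23 (standard error 0.10, adjusted p = 0.078), and was called without replicate 3 of Ctrl+vehicle (−0.32, adjusted p = 0.029) or replicate 2 of Ctrl+FGF2 (adjusted p = 0.035). Max was at −0.13 (standard error 0.05, adjusted p = 0.058), and was called without replicate 3 of Ctrl+vehicle (−0.17, adjusted p = 0.020).

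Levels of different members were compared per kb of exon, since a longer gene gathers more reads at the same level. The length is the union of all annotated exons (8483 bases for Mxd4 and 2717 for Myc), which can differ from the transcript that is expressed. The order depends on it. In CPM without this step, Mxd4 (135) was above Myc (58.5) in Ctrl+vehicle at d2.5. In Ctrl+vehicle at d2.5 the order was Myc at 21.5 CPM per kb, Mxd4 at 15.9, Max at 15.5, Mnt at 10.5, Mxi1 at 7.58, Mxd1 at 2.39, Mxd3 at 1.69, Mycn at 0.835 and Mycl at 0.411, and neighbours overlapped only for Mxd4 and Max. With FGF2 at d2.5 Myc was at 55.3 CPM per kb, ahead of Max at 14.8, and Mxd4 at 5.15 had moved behind Mnt and Mxi1. At d5 Mxd4 led in all 3 groups, at 19.5 CPM per kb with vehicle, 21.6 with FGF2 and 20.5 with FGF2 and knockdown, followed by Max at 19.1, 19.2 and 17.4. Mxd4 and Max overlapped in Ctrl+vehicle. Myc came after these in Ctrl+vehicle (13.3 CPM per kb), also after Mnt (13.6) in Y/T dKD+FGF2 (11.2), and after both Mnt (12.5) and Mxi1 (8.36) in Ctrl+FGF2 (7.52), where it overlapped with Mxi1.

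FGF2 shifted the makeup of the network in opposite directions on the 2 days. At d2.5 the Myc genes made up 29.5% to 30.3% of the summed CPM per kb of the 9 members in Ctrl+vehicle, 58.0% to 60.4% in Ctrl+FGF2 and 55.5% to 56.5% in Y/T dKD+FGF2 libraries. The Mxd genes, Mxi1 and Mnt together held 49.7% to 50.1%, 24.8% to 25.8% and 26.0% to 26.9% in the same order. At d5 the Myc share was 16.7% to 20.9% in Ctrl+vehicle, 8.51% to 11.4% in Ctrl+FGF2 and 14.8% to 15.96% in Y/T dKD+FGF2, and the share of the repressors was 54.0% to 58.2%, 63.4% to 65.2% and 60.3% to 62.2%. Ctrl+FGF2 thus held the largest Myc share of its day at d2.5 and the smallest at d5, without overlap with Ctrl+vehicle on either day. The ratio of Myc to Mxd4 per kb was 1.31 to 1.38, 10.3 to 11.2 and 8.25 to 8.69 in the 3 groups at d2.5, and 0.591 to 0.829, 0.284 to 0.397 and 0.513 to 0.570 at d5. These shares and ratios are of RNA, depend on the exon lengths used and were not tested. RNA levels do not give the amounts of the proteins or of their dimers.

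**Figure D3:**
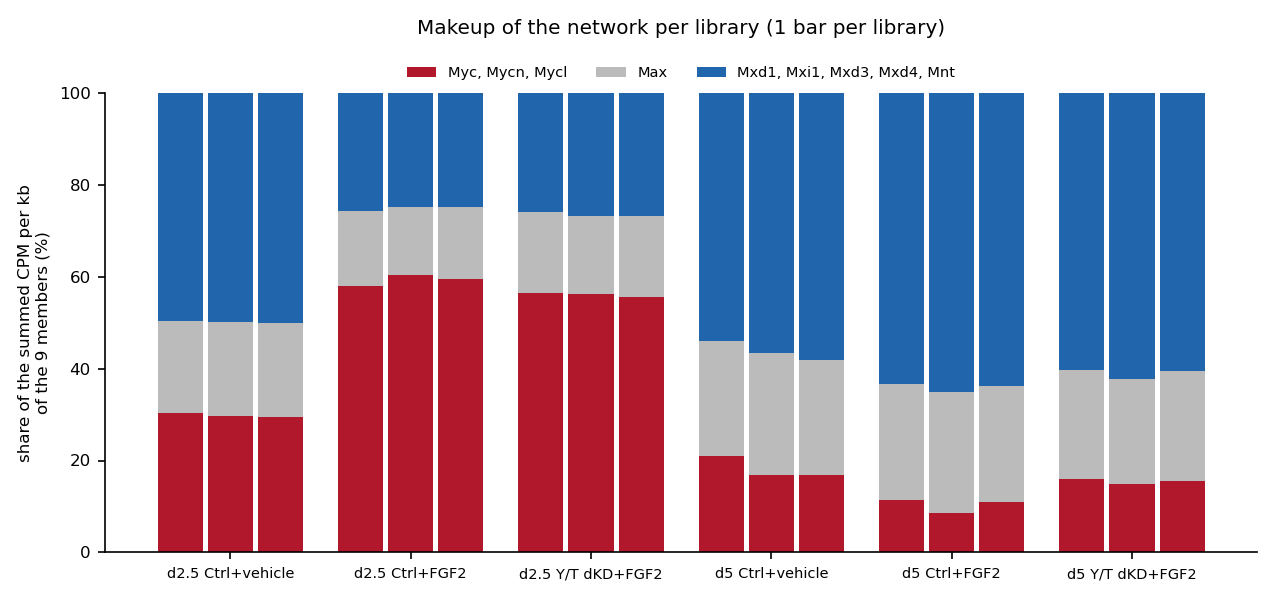
Share (%) of the summed CPM per kb of the 9 members held by the Myc genes, by Max and by the repressors, 1 bar per library. The share of the Myc genes is 58.0% to 60.4% in Ctrl+FGF2 at d2.5 and 8.51% to 11.4% in Ctrl+FGF2 at d5.

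Whether an effect differed between days was tested in 1 fit of all 18 libraries, as the log2 fold change at d5 minus that at d2.5. For FGF2, 7 of 9 members were called, against 60.9% of 14198 genes, and Max and Mycn were not. Mycl is among those called, but it was under the filter at d5 and entered this fit through its d2.5 libraries. Its call rests on few counts and was lost without replicate 3 of d5 Ctrl+vehicle. The differences were −2.18 for Myc (standard error 0.11, adjusted p = 1.2e-16), 1.78 for Mxd4 (standard error 0.06, adjusted p = 1.4e-20) and 1.28 for Mxd1 (standard error 0.12, adjusted p = 3.4e-10). For the knockdown, 3 of 9 members were called, against 20.9%. They were Myc at 0.86 (standard error 0.11, adjusted p = 9.8e-07), Mnt at 0.36 (standard error 0.07, adjusted p = 0.00056) and Mxi1 at −0.33 (standard error 0.09, adjusted p = 0.011). All 3 were called in each of the 18 fits that left out 1 library.

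Genes with a pattern most like that of each member over the 18 libraries were looked for among 9625 genes whose mean log2 CPM was 3 or more, by Pearson's r of log2 CPM. The libraries form 6 groups in 2 batches, so r describes the group means for the most part. Nearest to Myc were Rcc1, the exchange factor of the GTPase Ran (r = 0.995), and Rrp12, a ribosome biogenesis gene of the target list (r = 0.995). Nearest to Mxd4 were Irs1, the adaptor of insulin and IGF receptors (r = 0.998), and Fgfr2, a receptor of FGF ligands (r = 0.997). The mean of Fgfr2 was 294 CPM with vehicle, 29.4 with FGF2 and 30.7 with FGF2 and knockdown at d2.5, and 535, 724 and 576 CPM at d5. Mxd1 ran nearest to Sesn1 and Anxa6 (r = 0.992 for both), Mnt to Srf (r = 0.987) and Actb (r = 0.981), Max to Slc38a2 and Dag1 (r = 0.965 for both), Mxd3 to Ckap2l (r = 0.953) and Cyp20a1 (r = 0.943), and Mxi1 to Gsn (r = 0.903) and Nelfb (r = 0.892). For the sparse Mycn (Map2k6, r = 0.983, and Col15a1, r = 0.982) and Mycl (Map3k4 and Rcc2, r = 0.979 for both) the values rest on few counts.

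Genes that work with the network were read from a list of 30, made of the Mlx branch, coactivators, corepressors and regulators of Myc stability, of which 29 were tested on each day. This list and those that follow were chosen with earlier results of these data known. FGF2 at d2.5 raised 14 of them and lowered 3, where 33.5% of all genes were called higher and 34.1% lower, with a median log2 fold change of 0.08 beside 0.00 over all genes. The 2 largest rises were Aurka, a mitotic kinase that can shield N-Myc from degradation (21.7 ± 2.29 CPM in Ctrl+vehicle and 51.4 ± 1.22 in Ctrl+FGF2, SD, n = 3, log2 fold change 1.23, adjusted p = 3.9e-17), and Ruvbl2, an ATPase of chromatin remodelers (1.12, adjusted p = 1.7e-19). The 2 largest falls were Mlxip, the partner of Mlx that senses glucose (−0.81, adjusted p = 2.6e-15), and Fbxw7, the ubiquitin ligase subunit that marks Myc for degradation (−0.24, adjusted p = 0.014). The Fbxw7 call was lost without replicate 2 of Ctrl+vehicle (adjusted p = 0.14) or replicate 2 of Ctrl+FGF2 (adjusted p = 0.085). At d5 FGF2 raised 6 and lowered 9, against 23.5% and 23.7% of all genes, with a median of −0.03 beside 0.02. Zbtb17, through which Myc represses genes, rose by 0.53 (adjusted p = 0.00017) and Sin3b, a scaffold of Mxd corepressors, by 0.38 (adjusted p = 2.7e-06). Aurka fell by 1.59 (adjusted p = 1.6e-05) and Cip2a, which shields Myc from a phosphatase, fell by 1.32 (adjusted p = 7.1e-06).

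The knockdown at d2.5 raised 2 of these 29 genes and lowered 6, with a median of −0.02. Over all genes 10.8% were called higher and 13.6% lower, so these counts lie near the background and are no result about the list. The rises were Cip2a (0.19, adjusted p = 0.0098) and the deacetylase Hdac2 (0.15, adjusted p = 0.0052), and the largest falls were Zbtb17 (−0.23, adjusted p = 0.049) and Ruvbl2 (−0.22, adjusted p = 0.00030). Except for Ruvbl2 these calls depended on single libraries. Cip2a was lost without replicate 1 of Ctrl+FGF2 or replicate 1 or 3 of Y/T dKD+FGF2 (adjusted p = 0.068, 0.081 and 0.078), Hdac2 without replicate 3 of Y/T dKD+FGF2 (adjusted p = 0.075), and Zbtb17 in 6 of 9 fits (adjusted p up to 0.24). At d5 the knockdown raised 5 and lowered 1, against 15.6% and 16.1% of all genes, with a median of 0.06. Cip2a rose by 0.64 (adjusted p = 0.014, and 0.068 and 0.070 without replicate 2 of Ctrl+FGF2 or of Y/T dKD+FGF2), the ubiquitin ligase subunit Skp2 by 0.30 (adjusted p = 0.037, lost in 5 of 9 fits), and Ppp2r5a, a subunit of the phosphatase that acts on Myc, fell by 0.25 (adjusted p = 0.00087).

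Genes known as targets of Myc were read from a list of 57, mostly of nucleolar and ribosome biogenesis functions, all tested on both days. Since earlier results of these data were known when the list was chosen, its counts are a description. At d2.5 FGF2 raised 55 of the 57 and lowered 0, where 33.5% of all genes were called higher and 34.1% lower. The median log2 fold change was 0.76 beside 0.00 over all genes. Exosc5 and Ipo4, named here because they were the exceptions, did not pass. The largest rises were Dusp2, a MAP kinase phosphatase (0.416 ± 0.0893 CPM in Ctrl+vehicle and 5.76 ± 0.812 in Ctrl+FGF2, SD, n = 3, log2 fold change 3.74, adjusted p = 2.1e-14), and Ung, a DNA repair glycosylase (1.92, adjusted p = 3.9e-12). Dusp2 was near the limit of detection in Ctrl+vehicle and passed the filter on low counts through the groups with FGF2. Its rise is therefore a description only, and the size of the fold change rests on few counts. At d5 FGF2 raised 2 and lowered 32, against 23.5% and 23.7% of all genes, with a median of −0.24 beside 0.02. The rises were Sord, sorbitol dehydrogenase (0.96, adjusted p = 3.7e-11), and the kinase gene Map3k6 (0.45, adjusted p = 0.0061). The largest falls were the mitotic kinase gene Plk1 (−1.64, adjusted p = 0.00023) and Dusp2 (−1.23, adjusted p = 0.0087), the latter from few counts and lost without replicate 2 of Ctrl+FGF2 (−1.01, adjusted p = 0.055). In the test between days the list had a median of −1.10 beside 0.03 over all genes, with 53 of 57 called lower and 1 higher. Of all 14198 genes, 4134 were called lower and 4509 higher (60.9% in either direction).

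The effect of the knockdown on the 57 targets was smaller. At d2.5 it raised 8 and lowered 11, with a median of −0.04 beside 0.00, and 38 did not pass. With 10.8% of all genes called higher and 13.6% lower, these counts are near the background too. The largest called rises were Hspe1, a mitochondrial chaperonin (0.21, adjusted p = 0.00025), and the helicase subunit gene Mcm4 (0.18, adjusted p = 0.0011), and the largest called falls were Slc19a1, the folate carrier (−0.33, adjusted p = 0.00033), and Wdr74, of ribosome assembly (−0.29, adjusted p = 0.00034). The count of 19 called targets was 8 without replicate 3 of Y/T dKD+FGF2. At d5 the knockdown raised 21 and lowered 2, against 15.6% and 16.1% of all genes, with a median of 0.15 beside 0.00. Dusp2 (0.473 ± 0.160 CPM in Ctrl+FGF2 and 3.24 ± 0.0831 CPM after knockdown, SD, n = 3, log2 fold change 2.76, adjusted p = 6.4e-07) and Mcm5 (1.03, adjusted p = 0.00028) rose most. In Ctrl+FGF2 Dusp2 was near the limit of detection, so the size of its fold change rests on few counts. Sord (−0.63, adjusted p = 1.1e-08) and Map3k6 (−0.46, adjusted p = 0.0086) fell, and the latter call was lost without replicate 3 of Ctrl+FGF2 (adjusted p = 0.063) or replicate 1 of Y/T dKD+FGF2 (adjusted p = 0.053). Each effect is read against Ctrl+FGF2 libraries that also enter the FGF2 comparison of the day. Against Ctrl+vehicle, Y/T dKD+FGF2 cells had 52 targets called higher and 1 lower at d2.5 (median 0.72, with 34.1% and 35.7% of all genes), and 5 higher and 19 lower at d5 (median −0.09, with 20.7% and 21.1%).

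**Figure D4:**
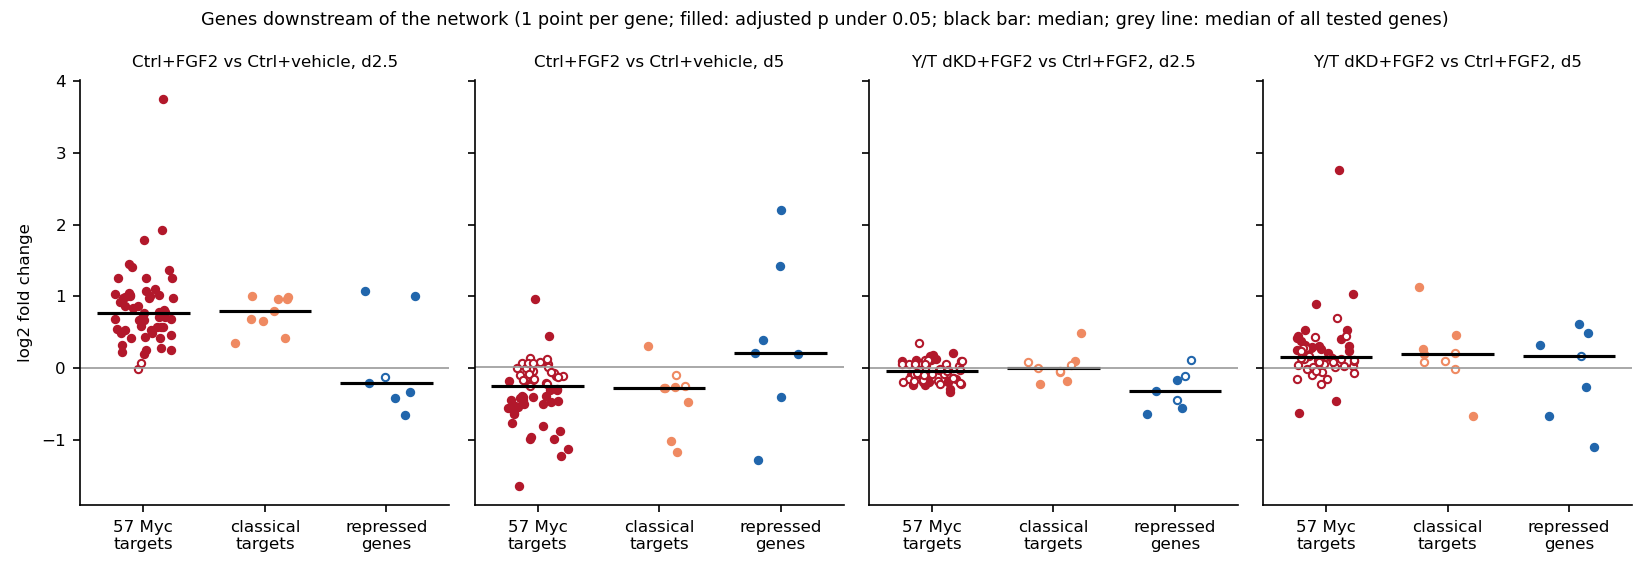
Log2 fold change (vertical axis) of the 57 Myc targets, the 9 tested classical targets and the 7 tested genes described as repressed by Myc, 1 point per gene, in 4 comparisons. Filled points passed the test and black bars are medians. The median of the 57 targets is 0.76 with FGF2 at d2.5, −0.24 with FGF2 at d5, −0.04 with the knockdown at d2.5 and 0.15 with the knockdown at d5.

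A second list held 10 targets from the early literature on Myc, 9 of which were tested. It too was chosen with earlier results of these data known, so it is no independent check of the first list. FGF2 raised 9 of these 9 at d2.5, against 33.5% of all genes, with a median of 0.79. The largest rises were Tfrc, the transferrin receptor (36.9 ± 5.72 CPM in Ctrl+vehicle and 74.4 ± 2.94 in Ctrl+FGF2, SD, n = 3, log2 fold change 1.00, adjusted p = 2.5e-12), and Ncl, nucleolin (0.99, adjusted p = 2.1e-22). At d5 FGF2 lowered 6 and raised 1, against 23.7% and 23.5%, with a median of −0.27. Ccnd2, cyclin D2, was at −1.17 (adjusted p = 5.8e-08) and Tfrc at −1.02 (adjusted p = 6.1e-08). Odc1, the first enzyme of polyamine synthesis, was at 0.31 (adjusted p = 0.00097), although its Ctrl+vehicle and Ctrl+FGF2 libraries overlapped. The knockdown raised Tfrc on both days, by 0.49 at d2.5 (adjusted p = 5.3e-06) and 1.13 at d5 (adjusted p = 2.7e-08). At d2.5 it raised 2 and lowered 2 of the 9, against 10.8% and 13.6%, with a median of −0.0013. Cad, of pyrimidine synthesis, fell by 0.18 (adjusted p = 0.00085). The calls of Ncl (0.09, adjusted p = 0.028) and Ccnd2 (−0.23, adjusted p = 0.022) were each lost without replicate 3 of Y/T dKD+FGF2 (adjusted p = 0.22 and 0.12) and in other fits, so that Ncl held in 5 and Ccnd2 in 6 of 9. At d5 the knockdown raised 4 and lowered 1, against 15.6% and 16.1%, with a median of 0.19. Fbl, fibrillarin, rose by 0.46 (adjusted p = 0.0014) and Odc1 fell by 0.67 (adjusted p = 6.7e-07).

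Of 8 genes described as repressed by Myc, mostly inhibitors of the cell cycle and growth, 7 were tested. At d2.5 FGF2 lowered 4 and raised 2, with a median of −0.21. Over all genes 34.1% were called lower and 33.5% higher, and counts of so few genes are given as a description only. The cyclin-dependent kinase inhibitors Cdkn1c (−0.66, adjusted p = 0.00040) and Cdkn1b (−0.42, adjusted p = 8.4e-10) fell most, while Ndrg1 (1.07, adjusted p = 8.8e-20) and Gadd45a (1.01, adjusted p = 3.2e-11), both known to respond to stress, rose. At d5 FGF2 raised 5 and lowered 2, against 23.5% and 23.7%, with a median of 0.22. Ndrg2, known from differentiated cells (2.21, adjusted p = 4.7e-09), and Cdkn1c (16.2 ± 0.158 CPM in Ctrl+vehicle and 43.0 ± 4.72 in Ctrl+FGF2, SD, n = 3, log2 fold change 1.42, adjusted p = 3.6e-10) rose most, and Ndrg1 (−1.29, adjusted p = 2.7e-10) and Cdkn1a (−0.40, adjusted p = 2.7e-06) fell. The knockdown at d2.5 lowered 4 and raised 0, against 13.6% and 10.8%, led by Ndrg1 (−0.64, adjusted p = 2.0e-12) and Gadd45a (−0.55, adjusted p = 2.3e-05). At d5 it raised 3, led by Gadd45a (0.61, adjusted p = 9.8e-06) and Cdkn1a (0.48, adjusted p = 5.1e-07), and lowered 3, led by Cdkn1c (−1.09, adjusted p = 1.0e-08) and Ndrg2 (−0.67, adjusted p = 0.00064), against 15.6% and 16.1% of all genes.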

How the data were processed

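Bulk RNA-seq of O9-1 cells was analysed in 18 libraries, and the CUT&Tag-seq samples were left out. For each library the authors deposited raw counts per gene laid out as STAR writes them. Per the labels, the submitters' processing notes name FastQC, STAR, Picard and featureCounts and the build mm10, and libraries were made from poly(A) RNA. Reverse-strand counts entered every fit, since they made up 96.0% to 96.6% of what the stranded columns hold. Entries that name no gene (27.0% to 34.4% of a library) were left out. Genes with near-identical copies may read low, because reads with several places are not in such counts. Names and coordinates came from GENCODE M21 on GRCm38 (55154 of 55335 identifiers matched), and promoter windows from RefSeq.

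The quasi-likelihood test of edgeR 4.0.16 (R 4.3.3), with TMM factors and filterByExpr, was applied to the counts in 1 fit of the 9 libraries of each day, and in 1 fit of all 18 for differences between days. A gene is called where its p, adjusted over all tested genes by Benjamini-Hochberg, is under 0.05, and all adjusted p-values come from this test unless DESeq2 1.42.0 is named. The standard error is the size of the log2 fold change over the root of the F statistic. The fit was tested on simulated counts with 200 genes changed per comparison, far fewer than were called in these data. That simulation does not test the scaling where many genes change. Levels are CPM with TMM factors over all 18 libraries, with n = 3 per group, and CPM per kb divides by the union of exons.

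The members and lists were chosen with earlier results of these data known. Named were all members, the siRNA targets, from each other list up to the 2 largest called rises and falls in the FGF2 and knockdown comparisons of each day, and for each member the 2 genes most alike over the libraries (0.5 added to CPM before log2). Also run were RLE factors, upper-quartile factors, DESeq2, fits with no filter, at least 10 counts in every library, unstranded counts, a replicate block, only the 2 groups compared, all 18 libraries in 1 fit, and leaving out each library.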

Additional observations from a re-analysis of the deposited data

Results flagged for a closer look

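The effect of FGF2 or of the knockdown differed between d5 and d2.5 for 7 members, by edgeR's test of the difference between days. For FGF2 the difference was −2.18 for Myc, −2.17 for Mxd3 (standard error 0.43, adjusted p = 7.3e-05) and −1.29 for Mycl (standard error 0.41, adjusted p = 0.011), and 1.78 for Mxd4, 1.28 for Mxd1, 0.53 for Mxi1 (standard error 0.09, adjusted p = 1.3e-05) and 0.46 for Mnt (standard error 0.07, adjusted p = 2.2e-06). The Mycl difference rests on few counts at d5 and was lost without replicate 3 of d5 Ctrl+vehicle (−1.03, adjusted p = 0.088). The other 6 were called in each of the 18 fits that left out 1 library. For the knockdown the difference was 0.86 for Myc, −0.33 for Mxi1 and 0.36 for Mnt. A shift between the batches of the 2 days that is common to all groups of a day cancels in these differences, and whether a shift that is not common had a part was not tested.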

How the results depend on the processing

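The Myc calls for FGF2 and the knockdown on both days, the Mxd4, Mxd1 and Mnt calls for FGF2 on both days and the Mxi1 calls at d5 kept their direction and their call under every alternative run. When 1 library was left out, values that had not passed in the main test changed sign. The ranges were −0.072 to 0.23 for Mycn and −0.019 to 0.20 for Mxd3 with the knockdown at d2.5, −0.0040 to 0.18 for Mycl at d2.5 in knockdown cells against Ctrl+vehicle, −0.028 to 0.071 for Max with FGF2 at d5, −1.77 to 0.091 for Mycn in the FGF2 difference between days and −0.0038 to 0.26 for Mycl in that of the knockdown. The count of targets called with the knockdown at d2.5 (19) was 8 to 28 with 1 library left out (8 without replicate 3 of Y/T dKD+FGF2) and 29 with only the 2 groups compared. Members called with the knockdown at d5 (4) were 2 to 4 with 1 library left out (2 without replicate 2 or 3 of Ctrl+FGF2 or replicate 1 or 3 of Y/T dKD+FGF2) and 2 with DESeq2. Members called at d5 in knockdown cells against Ctrl+vehicle (3) were 1 to 4 with 1 library left out (1 without replicate 1 of Ctrl+vehicle or replicate 2 of Y/T dKD+FGF2) and 6 with all 18 libraries in 1 fit. The causes were not tested. With DESeq2 the knockdown calls of Zbtb17 and Ccnd2 at d2.5 (adjusted p = 0.16 and 0.097) and of Cip2a and Skp2 at d5 (adjusted p = 0.071 and 0.093) were lost, and with all 18 libraries in 1 fit those of Cip2a, Ncl and Ccnd2 at d2.5 (adjusted p = 0.11, 0.065 and 0.078). With upper-quartile factors the median of all genes in the FGF2 difference between days was 0.12 instead of 0.03, and Max was then called in it (0.16, adjusted p = 0.041) and at d2.5 with FGF2 (−0.11, adjusted p = 0.039). Depth limits Mycn and Mycl at d5 and Mxd3 throughout. It also limits Dusp2 in Ctrl+vehicle at d2.5 and in Ctrl+vehicle and Ctrl+FGF2 at d5.

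Libraries with the same replicate number were not shown to be paired. The deviations of same-numbered libraries from their group means had correlations of −0.082 to 0.157, and not every library correlated best with its own number. With a replicate block the counts of called members were 6, 3 and 5 at d2.5 and 6, 4 and 4 at d5 for FGF2, the knockdown and both together. The Max call at d2.5 in knockdown cells against Ctrl+vehicle was then lost (adjusted p = 0.056), Myc was called there at d5 (−0.23, adjusted p = 0.033), and Zbtb17 with the knockdown at d2.5 was lost (adjusted p = 0.051).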

Other observations

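The E-box CACGTG was also read in the promoter windows of the target list. Of the 57 targets, 52 had a window, and 15 of these 52 held the E-box (28.8% of genes, against 8.09% of all genes with a window). They include Cdk4, which holds 4, and Dusp2, Exosc5 and Ipo4, named here after their values were seen. FGF2 at d2.5 raised 13 of these 15, all but Exosc5 and Ipo4, and 37 of the 37 targets without an E-box in the window. The median log2 fold change was then 0.58 in the 15 and 0.78 in the 37 without an E-box, and at d5 it was −0.16 and −0.30. These medians were not tested. CATTCC was in the windows of 4 of the 52 (7.69% against 16.6% of all genes).

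Over the 18 libraries Myc ran opposite to Mxd1 (Pearson r of log2 CPM −0.983), Mxd4 (−0.952), Mnt (−0.898) and Max (−0.888), alongside Mycl (0.901), Mycn (0.863) and Mxd3 (0.862), and had the weakest relation with Mxi1 (−0.300). The libraries form 6 groups in 2 batches, so these values describe the groups and are given with no test.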
